A study of Rattus norvegicus with 3 samples.

Results

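The list of regions that captured more methylated DNA from MLP than from C livers was described whole. Its members were all regions on chromosomes 1 to 20 that the authors' peak caller listed with the MLP library as the treatment and the C library as the control. They numbered 34126 of the 35998 regions of that list, and of 95306 regions over the 3 lists of the series. MLP vs. C means higher in MLP throughout, and regions lower in MLP were not analysed here. Most attention was given to 5763 regions with scores from 132.01 to 997.52 (16.9% of members), called the mid-score band. They lie between the strongest regions and the mass of weaker ones. None was among the MLP vs. C regions that the study selected by false discovery rate.

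Livers came from male Wistar rats 1 day after birth. In pregnancy the dams of the C group had received a normal diet, those of the MLP group low protein, and those of the MLP-F group low protein+folate. Each group was 1 library of pooled liver DNA, from 6 animals by the labels, while the study's text gives another pool size and states that the animals of a group were litter mates. Diet, litter and library therefore cannot be told apart, no replicate check exists and no test of diet was possible. All intervals below are 95% intervals, cover counting error over regions only, and do not cover variation between animals. Regions are not replicates of a diet.

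Cytosine methylation at CpG sites is copied to the daughter strand at each cell division, so that a mark set in fetal life can persist in the adult tissue. In MBD-seq, a methyl-CpG binding domain pulls methylated fragments out of sheared DNA, and regions rich in methylated CpG give more sequenced tags. Poor nutrition of the dam is a much used model of fetal programming, in which the offspring later show altered metabolism, and the liver is a main site of that metabolism. These files hold methylation only, and expression was not analysed here, so the tissue label was not checked against marker genes.

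The peak caller gave the excess of MLP over C tags in a region a p, and the score is its −log10 multiplied by 10. It grows with the size of the excess and with the depth of both libraries, and it is no measure of the methylation level. Positions are on the rat assembly rn4, counted from 1.

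Primers of the study's bisulphite PCR are shown because they mark the stretches amplified in 3 regions that lie far apart on the score scale. In bisulphite-treated DNA unmethylated cytosine is read as thymine, so the forward primers below hold no C and the reverse primers no G. Mcm6, which encodes a subunit of the replicative helicase, had its region at chr13:41055046-41056193 with a score of 50.53, close to the floor of the list. Agtrap, the gene of an angiotensin receptor-associated protein, had its region at chr5:165156757-165157718 with a score of 122.7, below the mid-score band. Dnmt1, which encodes the maintenance DNA methyltransferase, had its region at chr8:19965118-19965567 with a score of 220.58, inside the band. The primers are given 5′ to 3′.
Mcm6 forward: tttggtaaatggagttgggatataa
Mcm6 reverse: ctttacaacatctctaaacaaatctatcc
Agtrap forward: tttggtttgtttgtttagaaag
Agtrap reverse: ctaaaacccttctcctactac
Dnmt1 forward, first round: tagagggttattttagtaatagttat
Dnmt1 forward, nested: taaaggtaagatttaaagaaagg
Dnmt1 reverse: tatacataatttatcttcctcaaac

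Scores ran from 50 to 3100 with a median of 77.04. The top value was shared by 5 regions here and was also the top value of the MLP vs. MLP-F list, so it may be a ceiling of the scale. Scores were crowded, with quartiles of 60.74 and 110.74. A score of 50 stands for a p of 1e-05, the threshold of the peak caller. Regions with scores below the mid-score band made up 82.9% of the list (28297 regions). The band made up 16.9% (5763 of 34126, interval 16.5 to 17.3%), and regions at 1000 or more 0.193% (66 regions). A score of 100 or more was held by 10484 regions (30.7%).

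Within the band the scores were crowded towards its lower edge. Its median was 176.21 and its quartiles were 148.9 and 228.75, and 99% of its regions scored below 638.2. Up to a score of 150 there were 1483 regions, from 150 to 200 there were 2221 and from 200 to 300 there were 1399. Only 528 regions lay between 300 and 500, and those between 500 and 1000 were 0.387% of the list. The edges cut through a continuous series of scores. At the lower edge the closest member was chr5:45016149-45017521 with a score of 132.01, and chr17:88446745-88447319, whose score lay exactly on the limit, was left out, as was chr1:243030515-243030867 with 131.99. At the upper edge the closest member was chr16:81555142-81556503 with 997.52, and the closest region above it was chr16:48858466-48859353 with 1003.28.

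**Figure D1:**
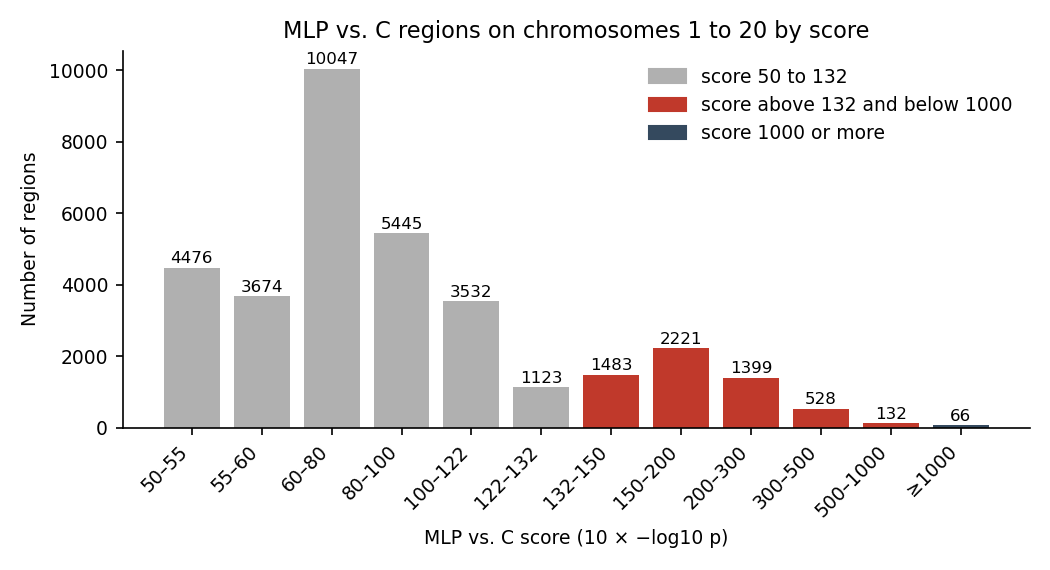
Number of MLP vs. C regions on chromosomes 1 to 20 (vertical axis) in 12 ranges of score (horizontal axis, ranges of unequal width), each bar being a count. The range from 60 to 80 holds 10047 regions, and the 5 ranges of the band, in red, run from 2221 regions at 150 to 200 down to 0.387% of the list at 500 to 1000.

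The 10 highest regions of the list included the 5 at 3100, which the authors annotate to Acadm, Mlph, Strap, RGD1306565 and RGD1311344. They were followed by chr18:80243760-80246225 with 3071.63 and chr19:44740071-44741085 with 3013.31, both without a gene name. Sfmbt1 came next, then LOC689904 with 2731.96 and Zfyve9 with 2513.77.

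The 5 bisulphite targets of the study spanned nearly the whole scale. In the study, bisulphite sequencing found a significant difference between C and MLP at each target except Sfmbt1. By place, Mcm6 was at 33749 of 34126. Fgf5, which encodes a fibroblast growth factor, was at 11418 with a score of 95.2 (chr14:12713062-12714431). Agtrap was at 6833, Dnmt1 at 1656, and Sfmbt1, a relative of polycomb group proteins, at 8 with a score of 2904.75 (chr16:6176260-6178343). Dnmt1 was thus the only target inside the band, where its place was 1590 of 5763. The Dnmt1 region of 450 bp was shorter than the lower quartile of the band, 589 bp.

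Regions were short, and those with higher scores were longer. Over the list the median length was 670 bp (interval 666 to 673), the quartiles were 514 and 875 bp, and the extremes 221 and 5336 bp. Together the regions covered 25025199 bp, or 0.979% of the chromosomes. The median rose from 604 bp at scores of 50 to 55 (interval 597 to 612) to 716 bp in the last range before the mid-score band. It was 770 bp in the band (760 to 784) against 651 bp in all regions below it (647 to 654), so these intervals did not overlap. At 1000 or more it was 1244 bp (959 to 1421).

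Inside the band the increase went on in part. Medians were 729 bp up to 150, 756 bp at 150 to 200, 812 bp at 200 to 300, 804 bp at 300 to 500 and 858 bp at 500 to 1000. The intervals of the last 3 overlapped. Regions of 1 kb or more were 13.5% of those below the band, 24.1% of the band and 60.6% of those at 1000 or more. Between 500 and 1000 the share was 40.9% (32.9 to 49.4%). Length and score were nevertheless only loosely related region by region. Across the 34126 regions Spearman's rho was 0.17, and across the 5763 of the band it was 0.10; the peak caller takes both from the same tags, and the regions share 1 pair of libraries.

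Long regions of moderate score show this most plainly. The longest region of the whole list, chr18:35797590-35802925, spanned 5336 bp and scored 149.59, in the lowest part of the band. No other listed region lay within 175008 bp of it. The next in length within the band, chr7:9875618-9879929, had 4312 bp and a score of 150.59. A region of 3731 bp in an intron of Rnf150, a gene for a RING finger protein, combined length with a high score of 848.36 (chr19:26948889-26952619). The others of the 10 longest in the band ran from 3195 to 4001 bp with scores from 136.55 to 916.55. Among the short regions of the band, the shortest of which had 230 bp, one of 302 bp in Kcnip1 scored 206.82.

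**Figure D2:**
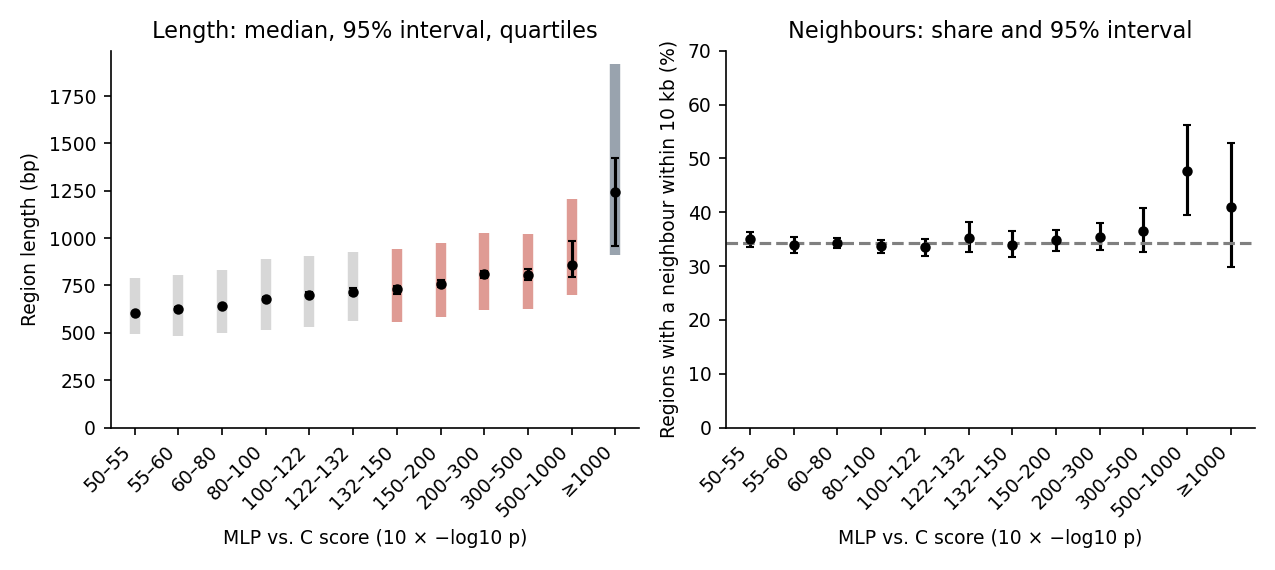
Left, region length in bp (points are medians with 95% intervals, thick bars run between the quartiles) by range of score; right, percent of regions with another listed region within 10 kb, with 95% Wilson intervals, the dashed line being 34.3% over the list. The median length rises from 604 to 1244 bp across the ranges, while the share with a neighbour stays near the line up to a score of 300 and is 47.7% at 500 to 1000.

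The highest scores below 1000 belonged to regions that mostly had no gene name. Their overlap with the other 2 lists varied, from no region to a region with the same or a higher score. The MLP vs. MLP-F list shares the MLP library with this one and the MLP-F vs. C list shares the C library, so their scores are given side by side only. The region at 997.52, 19.7 kb from a region annotated to an intron of Atp11a (a phospholipid flippase gene), overlapped regions scoring 214.61 in MLP vs. MLP-F and 185.87 in MLP-F vs. C. At chr11:17145496-17146298 the score was 993.37 here and also in the MLP vs. MLP-F list, and at chr7:1054061-1054642 it was 987.54 in each. No MLP-F vs. C region overlapped either of them.

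Further down, at chr2:3237180-3237658 a score of 920.13 stood beside 68.84 in MLP vs. MLP-F and 256.91 in MLP-F vs. C, while at chr2:218533978-218535590 a score of 917.91 stood beside 917.91 and no MLP-F vs. C region. The region at chr7:19833640-19834580 scored 888.12, overlapped no MLP vs. MLP-F region and scored 279.29 in MLP-F vs. C. At chr3:163934092-163934544 a score of 882.23 stood beside 115.73 in MLP vs. MLP-F and 193.22 in MLP-F vs. C. With these exceptions named, the other regions among the 20 highest of the band overlapped MLP vs. MLP-F regions with scores from 120.81 to 1589.72.

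The authors assigned 7 genes to regions inside the band. Cd28, the costimulatory receptor of T cells, had an upstream region of 1769 bp at chr9:59336141-59337909 with a score of 582.73. Orai1, the pore subunit of a store-operated calcium channel, had a region overlapping an exon at chr12:34631280-34632266 with 726.85. Thap1, a zinc finger factor, had an upstream region at chr16:70263242-70264596 with 474.83. Begain, whose product binds a postsynaptic guanylate kinase, had an intronic region at chr6:133315399-133317127 with 258.04. LOC498276 had an upstream region at chr13:86955273-86958163 with 585.38, and Rnf150 and Dnmt1 were the other 2.

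Most of these regions came from the authors' annotation of the MLP vs. MLP-F comparison, so their overlap with that list was fixed by the choice. In MLP vs. MLP-F the scores were 1986.99 for Cd28, 1509.2 for Orai1, 2401.59 for Thap1, 1810.81 for Begain, 1767.25 for LOC498276 and 1589.72 for Rnf150. Dnmt1, named as a bisulphite target instead, scored 115.99 there. Scores of different lists rest on different libraries, whose depths the lists do not give.

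A further 6 regions of the band lay between regions that the authors place in introns of the same gene. Dym, which encodes a Golgi protein needed for skeletal growth, held 2 of them: chr18:72041416-72042278 scored 235.64 and chr18:72091184-72092486 scored 348.81. Bbs9, a subunit of the ciliary BBSome, held chr8:22375413-22376032 with 237.32. Skap1, an adaptor in T cell receptor signalling, held chr10:85277428-85277993 with 213.55. Kcnip1, which encodes a potassium channel-interacting protein, held chr10:18647855-18648156 with 206.82. Vti1a, a SNARE of vesicle transport, held chr1:261746247-261747036 with 177.34.

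In MLP-F vs. C, Skap1 scored 139.86, Vti1a 95.46, Bbs9 85.51 and the weaker Dym region 63.64, and none of these 4 overlapped an MLP vs. MLP-F region. The stronger Dym region scored 239.57 and Kcnip1 145.48 in MLP vs. MLP-F, and neither overlapped an MLP-F vs. C region. Of the band as a whole, 357 regions lay within 50 kb of an annotated region, and 5393 (93.6%) had none so close. Names are scarce in the band because of how regions were annotated. The authors' MLP vs. C annotation covers the regions they selected by false discovery rate. Of its 1145 members here, 1109 scored below the band, 36 at 1000 or more and none inside it. The lowest of these members scored 121.79, so the 1109 lay directly under the band and not among the weakest regions. The band thus lies outside that selection.

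Genes that the authors name at regions of the list were then searched for a further region of the mid-score band within 50 kb of their own. This held for 250 of 850 named genes (29.4%, interval 26.4 to 32.6%). The count includes Thap1, whose only such region was itself annotated to the gene. It also includes RNA names that many regions share, such as SNORA17 with 38 annotated regions. The lists below are small, they were chosen with earlier results in view, and all their intervals include 29.4%.

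Of 24 listed genes of T cell and immune regulation, 12 were named and 5 of these had such a region. Bcl11b, a factor of T cell commitment, had one 9.4 kb away with a score of 262.06 (chr6:131885487-131886379), which overlapped an MLP-F vs. C region scoring 367.67 and none of MLP vs. MLP-F. Cd28 had a second region 29 kb away with 165.62. For Foxp1, a forkhead factor, the regions scored 212.71 at 16.7 kb and 137.97 at 49.7 kb. Nfatc2, which carries calcium signals to the nucleus, had one at 13.6 kb with 134.58, and Skap1 the intronic region given above.

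Of 18 blood cell genes 3 were named and 2 had a further region, and of 18 hepatocyte genes 2 were named and none had one. Runx1, a factor of blood stem cell formation, had its region 1.6 kb from an upstream one, with a score of 183.17 (chr11:32956392-32956913). Meis1, a homeobox factor of the same cells, had one at 12.3 kb with 208.27 (chr14:99799783-99800691) beside 205.41 in MLP-F vs. C. In whole liver, altered methylation within cells and altered shares of cell types cannot be told apart.

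Among the metabolic genes, insulin and FOXO signalling had 5 of 18 genes named and 3 with a further region. Enpp1, whose product dampens insulin receptor signalling, had 3 of them within 50 kb of its intronic region, with scores of 166.06, 185.41 and 171.67 at 24, 30.2 and 41.2 kb. They make up a small group on chromosome 1 between 21278048 and 21295567. Pdk1, a kinase gene of glucose metabolism, had one 9.3 kb away with 190.26, and Fto, an obesity-linked RNA demethylase gene, one 12.2 kb away with 146.79. In lipid metabolism and fatty acid oxidation 8 of 23 were named and 2 had a further region. That of Acadm, the medium-chain acyl-CoA dehydrogenase, scored 261.61 and lay 11.1 kb from a region at 3100, the top value of the scale, and that of Ppard, a fatty acid receptor, scored 149.08 at 30 kb.

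Of 17 cell cycle and replication genes 8 were named by their own symbol, and 3 of these had a further region. The entry CCND2_RAT, for the listed gene Ccnd2, was not counted among them. It had 3 band regions within 50 kb of its own, the highest scoring 196.12. Pftk1, a cyclin-dependent kinase relative, had 2, with scores of 286.01 at 7 kb and 153.5 at 3 kb. Cdc2l6, another such kinase, had one at 0.8 kb with 252.22, and Cep135, a centriole gene, one at 3.2 kb with 149.53. For one-carbon metabolism and DNA methylation 4 of 19 genes were named, and for polycomb and trithorax 4 of 15, and none of these 8 had a further region within 50 kb. Dnmt1 is among the former with its own region in the band.

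Regions were spread over all 20 chromosomes at 13.3 per Mb, and the band at 2.25 per Mb, but the density differed between chromosomes. Chromosome 12 had the highest, 24.5 regions per Mb (interval 23.1 to 25.9), followed by chromosome 20 with 19.8 (18.6 to 21.01), chromosome 19 with 18.6 (17.5 to 19.7) and chromosome 10 with 16.5 (15.7 to 17.3). The intervals of chromosomes 20 and 19 overlapped. Chromosome 2 had the lowest, 10.99 per Mb (10.6 to 11.4), so that chromosome 12 was 2.22 times as dense. The shorter chromosomes tended to be denser, with a Spearman's rho between length and density of -0.60 over the 20 chromosomes, which share the same libraries.

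The share of the band hardly followed this. It lay between 13.5% and 18.6% of a chromosome's regions, and for 19 of 20 chromosomes the interval included 16.9%. The exception was chromosome 10 with 13.5% (11.99 to 15.1%), which also had no region at 1000 or more. Chromosome 12, the densest, had 18.2% (16.1 to 20.5%), and its band density was the highest at 4.45 per Mb. Chromosome 15 had the highest share, 18.6% (16.6 to 20.8%), at a density of 12.1 per Mb.

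**Figure D3:**
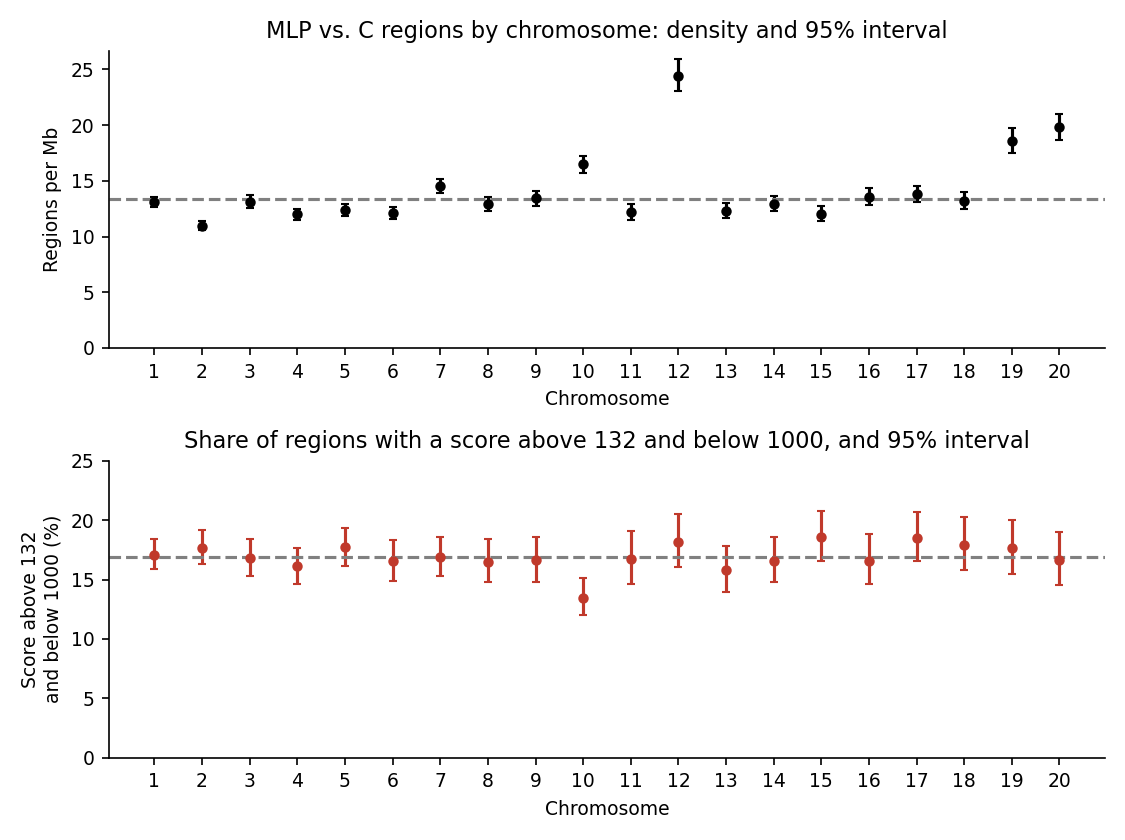
Regions per Mb with 95% Poisson intervals (top) and percent of regions in the mid-score band with 95% Wilson intervals (bottom) for chromosomes 1 to 20, dashed lines being the values over all 20. Chromosome 12 stands at 24.5 per Mb and chromosome 2 at 10.99, while in the lower panel only chromosome 10, at 13.5%, has an interval that misses the line at 16.9%.

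Towards the ends of the chromosomes the densities differed as well. The last 5 Mb of the 20 chromosomes had 15.95 regions per Mb and the first 5 Mb had 11.6. In the band these values were 2.78 and 2.22 per Mb.

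Neighbouring regions were often close. The median gap to the next region was 37371 bp, the mean was 74119 bp, and the quartiles were 13643 and 87836 bp. Another listed region lay within 10 kb of 34.3% of regions (33.8 to 34.8%). For regions of the band this share was 35.2% (34.0 to 36.4%) when any listed region counted as a neighbour, so band and list did not differ beyond their intervals. It was 47.7% (39.4 to 56.2%) for regions at 500 to 1000, above the value of the list, and 40.9% (29.9 to 53.0%) for the 66 regions at 1000 or more, where the interval included it.

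Between members of the band the distances were larger, as the band is less dense than the list. The median gap was 234705 bp and the quartiles 84551 and 558878 bp. A second band region lay within 10 kb of 8.12% of them (7.44 to 8.85%), within 50 kb of 30.02% and within 100 kb of 47.0%.

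**Figure D4:**
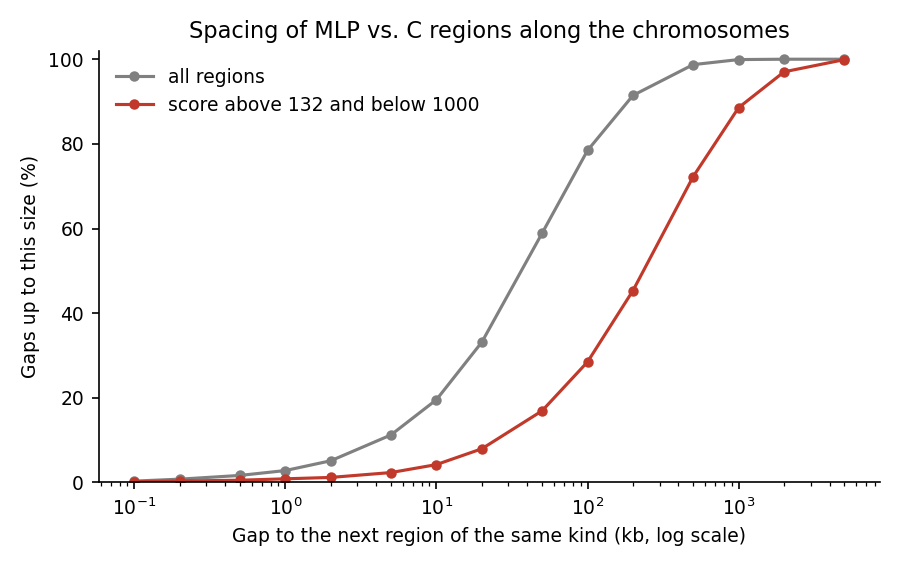
Percent of gaps (vertical axis) that are no longer than a given size in kb (horizontal axis, log scale), between neighbouring regions of the whole list (grey, 34106 gaps) and between neighbouring regions of the mid-score band (red, 5743 gaps). Gaps up to 10 kb are 19.5% of the grey and 4.21% of the red.

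Some neighbours formed longer runs. When regions with gaps of up to 10 kb were joined, the list held 1185 runs of 3 or more and 82 of 5 or more. The longest had 10 regions at chr7:138207577-138258134, with scores from 57.75 to 140.28, and included the region annotated to Faim2, an inhibitor of Fas-mediated cell death. A run of 9 at chr5:156876966-156932761 reached only 77.46, and a run of 7 at chr20:43546342-43577876, at Fyn, a Src family kinase gene, reached 123.84. Long runs were therefore found among weak regions too.

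Within the band alone there were 212 runs of 2, 13 of 3 and 1 of 5. The run of 5 at chr16:38916536-38941590 packed scores from 146.09 to 517.07 into 25055 bp, inside a run of 8 regions of the list. The run of 3 at LOC498276, chr13:86953449-86964047, reached the highest score of the runs of 3, with 882.82, 585.38 and 916.55 along 10599 bp. Its outer members lay 82 bp and 2440 bp from the middle one. The tightest of the 13 runs of 3 was chr19:14116810-14120620, with scores from 160.98 to 207.03 within 3811 bp.

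Counts per 1-Mb bin varied widely. Over 2550 full bins the mean was 13.4 regions and the median 11, with quartiles of 6 and 19, and the variance was 5.68 times the mean. Only 10 bins were empty, and the fullest held 51. Adjacent bins were alike, with a Spearman's rho of 0.60 over 2530 pairs, which share bins with each other. For the band the median was 2, the fullest bins held 12, 499 bins (19.6%) held none and the variance was 1.83 times the mean. This ratio tends to fall when a list is thinned, so 1.83 beside 5.68 does not show a more even spread of the band.

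**Figure D5:**
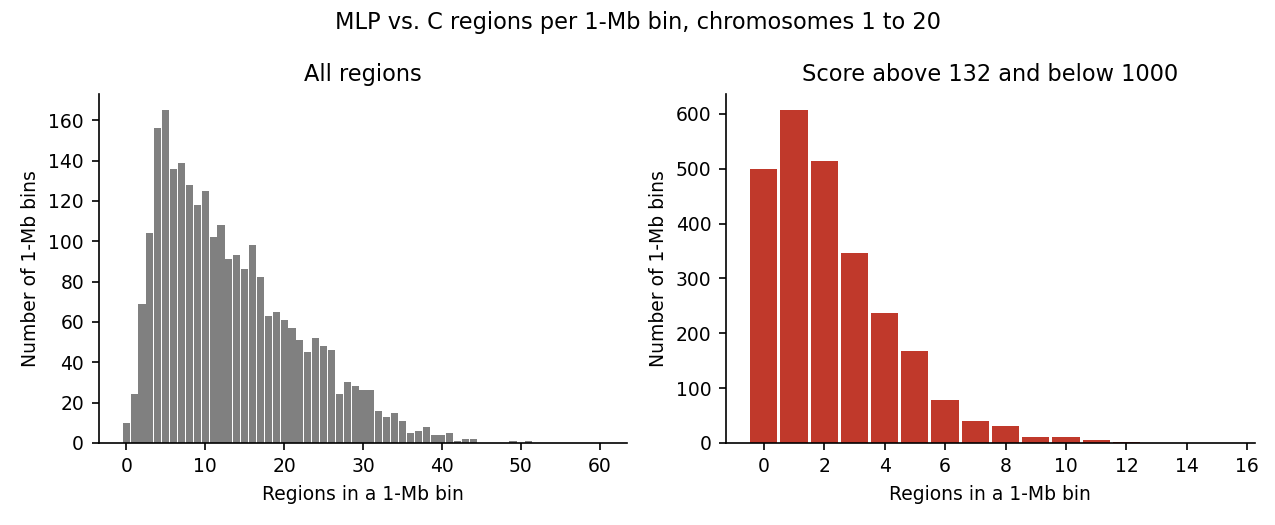
Number of 1-Mb bins (vertical axis) by the number of regions in the bin (horizontal axis), for all regions (left, grey) and for those of the mid-score band (right, red), over 2550 bins of chromosomes 1 to 20. All regions reach 51 in a bin and leave 10 bins empty; the band reaches 12 and leaves 499 empty.

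The densest 5% of bins, 128 in number, held 13.0% of the regions. Since 26 bins tied at 30 regions, the 146 bins with 30 or more were placed instead, and they held 14.6%. Chromosome 20 had 15 of its 55 bins among them (27.3%), chromosome 12 had 12 of 46 (26.1%), and chromosome 11 had none of 87. Of the regions in these 146 bins 16.9% belonged to the band, the same share as over the whole list. In bins with 1 to 5 regions the share was 17.7% (16.1 to 19.5%), in bins with 6 to 10 it was 18.4% (17.4 to 19.5%), in bins with 16 to 20 it was 16.1% (15.2 to 17.0%), and in bins with 31 or more 17.1% (15.95 to 18.2%).

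The fullest bin was on chromosome 14 between 8 and 9 Mb, with 51 regions of which 7 were in the band. The authors name Wdfy3, an autophagy gene, there. The adjoining bin between 7 and 8 Mb held 42, with 9 in the band, at Mapk10, a JNK kinase gene, and Slc10a6, a transporter of sulphated steroids. Chromosome 4 between 173 and 174 Mb held 49, with 9 in the band, at Erp27 and Grin2b, an NMDA receptor subunit gene. Chromosome 17 between 11 and 12 Mb held 41, with 10 in the band and a highest score of 854.73, at the entry NTRK2_RAT, a neurotrophin receptor. Chromosome 19 between 26 and 27 Mb held 41, with 6 in the band, at Rnf150 and Ucp1, the uncoupling protein of brown fat.

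Other bins of the 10 fullest were on chromosomes 1, 3, 6, 7 and 15, with 41 to 44 regions. Ties were broken by position, which left out 2 of 5 bins with 41. On chromosome 1 between 96 and 97 Mb the authors name ABCC8_RAT, the sulphonylurea receptor, Otog and Fgf21, a fasting hormone of the liver. That bin had 12 band regions of 44, the joint highest count, but no score above 336.48. On chromosome 6 between 135 and 136 Mb, at Ppp2r5c (a phosphatase subunit) and Traf3 (a signalling adaptor), 4 of 43 were in the band. On chromosome 7 between 11 and 12 Mb, at Atp5d and Mbrl, 11 of 43 were. On chromosome 3 between 160 and 161 Mb, at Zfp217, 5 of 44 were, and on chromosome 15 between 23 and 24 Mb, at Wdhd1, 9 of 41 were.

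Bins with the most band regions were not always full ones. There were 19 bins with at least 10, and of the 11 with exactly 10 the first 2 by position are named. Chromosome 9 between 103 and 104 Mb, at Pja2, a ubiquitin ligase gene, had 12 of 36. Chromosome 7 had 11 of 26 between 118 and 119 Mb, at Apobec3f, a cytidine deaminase gene, and 11 of 30 between 140 and 141 Mb, at Krt86, a hair keratin gene. Chromosome 15 between 21 and 22 Mb, at the phospholipase gene Ddhd1, had 11 of 25, and chromosome 1 between 75 and 76 Mb had 10 of only 18, with a median score of 150.96. Bins on chromosome 10 between 14 and 15 Mb and on chromosome 19 between 10 and 11 Mb had 11 of 38 and 11 of 29 with no gene named. Chromosome 1 between 7 and 8 Mb, at Utrn, the utrophin gene, had 10 of 34.

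Counts in the other lists, which share a library each, differed among these bins. In the fullest bin, at Wdfy3, there were 51 regions of MLP vs. C, 23 of MLP vs. MLP-F, and 31 of MLP-F vs. C. At ABCC8_RAT and Fgf21 the counts in this order were 44, 47 and 11, and at Atp5d on chromosome 7 they were 43, 59 and 11. At Pja2 they were 36, 22 and 27, and at Krt86 30, 45 and 11. Over chromosomes 1 to 20 the lists held 34126, 31671 and 24305 regions. At Fgf21, Atp5d and Krt86 the MLP vs. MLP-F count was the higher of the first 2, while at Wdfy3 and Pja2 the MLP vs. C count was. All these bins were chosen by their MLP vs. C counts, of all or of band regions, which favours that list in the contrast.

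The lists also differed in their bands. In MLP vs. C the band held 16.9%, in MLP vs. MLP-F 22.3% (7064 regions) and in MLP-F vs. C 8.07% (1962 regions). Median scores were 77.04, 81.41 and 69.33 in the same order. Regions at 1000 or more numbered 66, 72 and 5. Scores depend on depth, which the lists do not give, and the read numbers that the study reports were not used here. These values are therefore not a ranking of the diets.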

How the data were processed

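MBD-seq was done on 1 pooled liver library per group (C, MLP, MLP-F), grouped by the labels. The authors mapped paired reads with Bowtie to the assembly rn4, and MACS compared the libraries in pairs. The submitters' processing notes add CASAVA. No version is given in these sources. The deposited lists hold a position and a score per region (−log10 of the MACS p, times 10) and no tag counts, so they do not state depth. The study's supplement reports total and unique reads per library, which were not used here. Starts were converted to 1-based positions. Chromosome lengths were the largest end over the 3 lists. Bins were 1 Mb and neighbours 10 kb. Intervals were Wilson, exact Poisson or order-statistic, at 95%. Places share the last rank in ties. No test was made. Regions and genes were named from the 10 highest regions, the 20 highest and 10 longest of the band, its edges, the 10 densest bins (ties by position), genes between 2 intronic regions, and the gene lists. Genes, places and primers came from the authors' annotation, and other genes (Faim2, Fyn, the band's annotated genes) and runs were chosen after their values were seen. Members and lists were chosen with earlier results of these data known. No rn4 sequence or annotation was used here. Alternatives are given in the closing section. Scripts were tested on simulated data. Python 3.11.15, numpy 2.4.6, pandas 2.3.3, SciPy 1.17.1 and matplotlib 3.10.9 were used.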

Additional observations from a re-analysis of the deposited data

Results flagged for a closer look

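The MLP vs. C list also held 938 regions on chromosome X and 934 on sequence not placed on a chromosome, which the report's main comparisons did not use. They were scored against the same C library. On chromosome X the density was 5.84 per Mb, 23.2% of regions (20.7 to 26.0%) had a score in the mid-score band, the median length was 795 bp and the highest score 888.12. On unplaced sequence 20.9% did, the median length was 740.5 bp and the highest score 1246.89. All animals were male by the study's text.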

How the results depend on the processing

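No paired analysis was possible because each group was 1 pooled library, and for the same reason no replicate could be left out. With 1 library a side, a difference in diet, litter or depth cannot be told apart. Of 49 alternative values, 25 stayed within 1.5 times the count or ratio, or within the interval of the reported share, median or density, and 24 did not. A minimum score of 100 left 10484 regions, with a median length of 742 bp, 13.5% with a neighbour within 10 kb, a variance-to-mean ratio of 2.48, 21 regions in the densest bin, 7.48 per Mb on the densest chromosome and 15.4% in the densest 5% of bins. With chromosome X and unplaced sequence the median length was 673.5 bp. Unplaced sequence entered no bins or gaps. With regions within 500 bp merged, the median length was 675 bp, and 787 bp in the band, and the share with a neighbour was 32.3%, and 7.22% in the band. With a gap of 5 kb these shares were 20.9% and 4.55%, and with 20 kb 53.2% and 14.7%. A band that began at 150 held 12.5% of regions, with a median length of 787 bp and 6.82% near another, and a band that ended at 500 had 7.42% near another. In bins of 0.5 Mb the variance-to-mean ratio was 3.63 and the densest 5% held 14.4% of regions, and in bins of 2 Mb these were 9.10 and 12.04%. Changes of distance, band or bin size act on these values by their construction. A higher minimum score likewise lowers counts and densities and, as it thins the list, tends to lower the variance-to-mean ratio. Merging lengthens the joined regions and removes their closest gaps. The cause of the other changes was not tested.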

Other observations

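Scores were not spread evenly. The 34126 regions had only 9724 different scores, and 85.9% of regions shared theirs with another (52.9% in the band). The commonest were 50.71, held by 332 regions, 60.75 by 295 and 56.34 by 187. Such steps arise when a score is computed from whole tags.

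The list gives no tag counts, so the steps were compared with Poisson tail probabilities of whole numbers of MLP tags, against expected numbers that are whole multiples, up to 59, of a unit rate. At a unit rate of 1.96 tags, found by a search between 1 and 3, 57.1% of scores were met to 2 decimals, against 13.0 to 23.5% at 100 other rates. Even multiples met 37.7% and odd multiples 23.9%. The share met was 56.9% in the band and 57.2% below it. It was 65.7% for regions of 400 to 1000 bp, 15.9% for the 1364 regions under 350 bp, where other rates met 10.1 to 29.6%, and 33.5% for those over 1000 bp. At this rate a score of 50.71 is met by 23 MLP tags against 7.85 expected, and 71.44 by 27 against 7.85. A score of 56.34 is met by 31 against 11.8, and 60.75 by 3 different pairs of numbers, so it could not be assigned.

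A further 703 regions (2.06%), of which 84 were in the band, had scores that a single expected number of 4.92 tags gives, such as 72.12 with 21 MLP tags, held by 117 regions, and 145.4 with 31, held by 14. Of regions under 350 bp, 28.7% had such a score. The scores of 40.8% of all regions were met in neither way. Since other rates met up to 23.5% of scores, the tags of a single region are not certain, and whether the unit rate is the ratio of the depths of the libraries was not tested.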
